A study of Homo sapiens with 4 samples.

Results

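The constitutive proteasome and the ubiquitin-conjugating enzymes were followed on 4 two-colour arrays of EJM cells (an established cell line from a human multiple myeloma, a plasma cell cancer). Members were the genes whose annotated symbol begins with PSMA, PSMB, PSMC, PSMD, PSMG or UBE2. The immunoproteasome genes PSMB8, PSMB9 and PSMB10 and the cell cycle enzymes UBE2C, UBE2S and UBE2T were left out by that rule. It picked 16 symbols, of which 13 had a value on at least 3 arrays, among 4212 named genes and 7713 features in all (a feature is a named gene or an unnamed probe). The 13 were 5 core subunits (PSMA7, PSMB1, PSMB4, PSMB6 and PSMB7), 2 cap subunits (PSMD6 and PSMD14) and 6 conjugating enzymes (UBE2A, UBE2B, UBE2H, UBE2J1, UBE2V1 and UBE2Z). All 13 had values on all 4 arrays. No PSMC or PSMG gene was analysed here, and the word class below stands for these 13 genes only.

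Both channels of each array held RNA of EJM cells carrying a super-repressor form of IκBα controlled by the tetracycline repressor. The Cy5 channel held cells given 20 µg/ml doxycycline for 1, 2, 3 or 4 days, and the Cy3 channel held uninduced cells, so the controls carried the transgene too. The labels name neither a clone nor a dye swap. Each value is the log2 ratio of induced over uninduced cells, with 1 array per day; this direction was taken from the dyes in the labels and the log base from the range of the values, since the deposited table states neither. The opposite orientation would turn every sign below, and a natural log would change every fold. The ratios give no level of a gene, so the cell type could not be checked by marker levels. All 8 plasma cell markers had means above 0 without passing the test (median 0.45).

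The proteasome is the protease that degrades proteins tagged with ubiquitin. Its barrel-shaped core is built from rings of alpha (PSMA) and beta (PSMB) subunits, and its cap of ATPases (PSMC) and other subunits (PSMD) recognises, unfolds and feeds in the substrate. Conjugating enzymes (UBE2) take activated ubiquitin from an E1 enzyme and pass it on to substrates with the help of ligases. NF-κB signalling uses this system at several steps: phosphorylated IκBα is tagged and destroyed by the proteasome, and the super-repressor is a form of IκBα that escapes this. Myeloma cells, which secrete large amounts of antibody, are known for their dependence on the proteasome, the target of bortezomib.

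No member passed the test for a difference between induced and uninduced cells. The test compared the average log2 ratio of the arrays with 0 using limma, for all 7713 features, and a call needed a Benjamini-Hochberg adjusted p under 0.05. It called 0 of 13 members, and over all features it called 0.337% (26 of 7713). Before adjustment 2 of 13 members, UBE2V1 and PSMB7, had a p under 0.05, against 12.5% of all features. The lowest limma adjusted p among the members was 0.278 for UBE2V1, and the next was 0.286 for PSMB7. The arrays stand for different days, with no replicate of any day, and separate cultures are not stated. A p-value here therefore reflects no more than the spread among these 4 hybridisations.

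On single days no member reached 2-fold in either direction. Over all features the share at least 2-fold away from the control was 3.74%, 5.5%, 0.876% and 1.25% for days 1 to 4. The largest single value of a member was 0.69 for UBE2V1 on day 1, and the lowest was -0.60 for PSMD6 on day 2. The arrays of days 1 and 2 were the more widely spread, with SDs over probes of 0.517 and 0.569, against 0.345 and 0.38 on days 3 and 4. The lowest correlation between any arrays over probes was 0.0204, so the arrays did not all resemble each other.

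**Figure D1:**
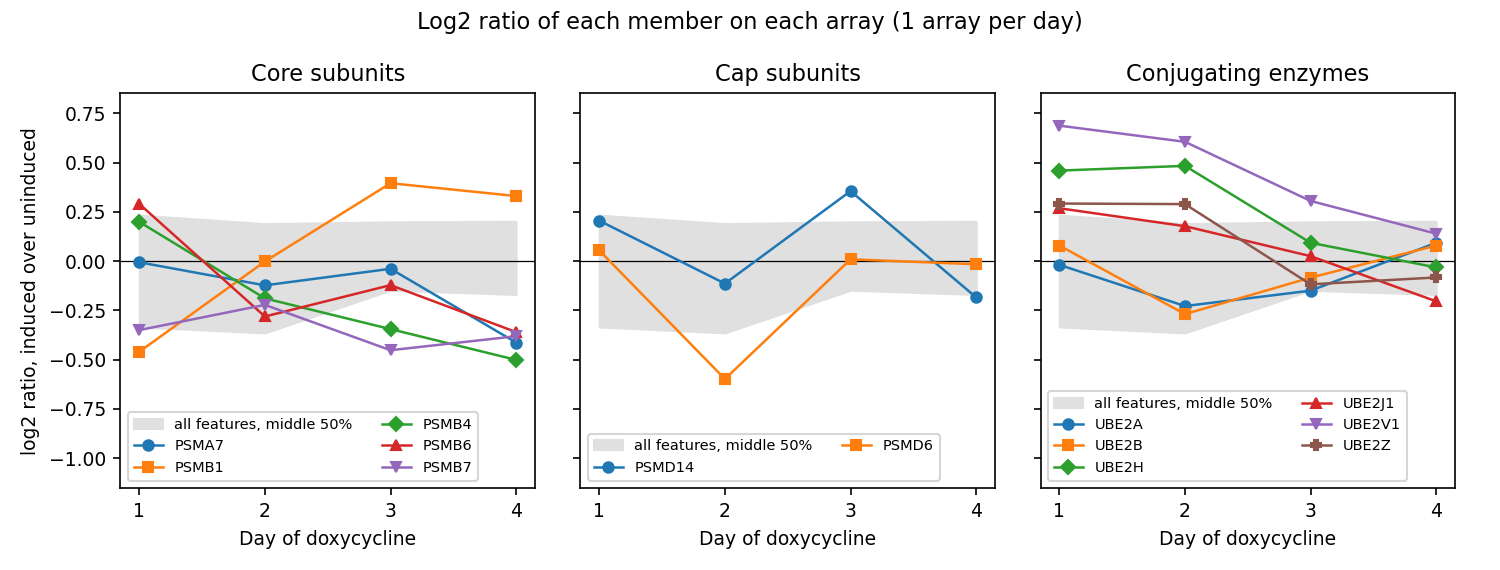
Log2 ratio of induced over uninduced cells (vertical axis) for each member on each day of doxycycline (horizontal axis), 1 array per day, with the core, cap and conjugating enzyme genes in separate panels; the grey band holds the middle 50% of all features. PSMB1 is the core subunit at 0.40 on day 3 while the others lie below 0. UBE2V1, an inactive variant, and UBE2H are the highest of the conjugating enzyme class on days 1 and 2.

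The core subunits lay mostly below 0. Of 5 means 4 were below 0, with a median of -0.15, against -0.032 over all features, where 44% of the means were above 0. The core median was -0.25 without the day 1 array and -0.056 without the day 4 array. PSMB7, a catalytic subunit with trypsin-like activity, read -0.35, -0.22, -0.45 and -0.38 on days 1 to 4. It was below 0 on every array and had the lowest mean of all members. That mean was -0.35 ± 0.10 (SD, 4 arrays), or 1.28-fold lower in induced cells (limma adjusted p = 0.286). Its 95% interval from limma, which is not adjusted for the number of features tested, was -0.61 to -0.09.

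PSMB4, a structural beta subunit, read 0.20, -0.19, -0.35 and -0.50 on days 1 to 4. Its day 1 value was the only one above 0, and its mean was -0.21 ± 0.30 (limma adjusted p = 0.58). PSMB6, the catalytic subunit with caspase-like activity, read 0.29, -0.28, -0.12 and -0.36, again with day 1 alone above 0 (mean -0.12 ± 0.29). PSMA7, an alpha ring subunit, read -0.006, -0.12, -0.039 and -0.41, so that day 4 was its lowest (mean -0.15 ± 0.19). PSMB1, a structural beta subunit, ran the other way and read -0.46, -0.002, 0.40 and 0.33. Its mean was 0.07 ± 0.39, which became -0.044 without the day 3 array and -0.022 without the day 4 array. Each of these core subunits rests on 1 probe, so no second probe was there to compare.

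The cap had 2 measured members, both above 0 on days 1 and 3 and below 0 on days 2 and 4, with some values close to 0. PSMD14, the deubiquitinase of the cap that removes ubiquitin chains from substrates, read 0.20, -0.11, 0.36 and -0.18 (mean 0.07 ± 0.26, limma adjusted p = 0.859). Its probes disagreed: probe 32028_1 read 0.35, 0.23, 0.36 and 0.20, all above 0. Probe 31367_1 had no day 3 value and read 0.06, -0.46 and -0.56 otherwise. The day 3 average of PSMD14 therefore rests on 1 of its 2 probes, and without the day 3 array its mean was -0.031. PSMD6, a non-ATPase scaffold subunit, read 0.05, -0.60, 0.009 and -0.016, with day 2 far below the other days. Its mean was -0.14 ± 0.31 (limma adjusted p = 0.71), and without the day 2 array it was 0.016.

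The conjugating enzymes had 4 of 6 means above 0, with a median of 0.08, which was 0.014 without the day 1 array, 0.03 without day 2, 0.12 without day 3 and 0.16 without day 4. UBE2V1, a catalytically inactive variant that pairs with UBE2N to build the non-degradative ubiquitin chains used in NF-κB and stress signalling, was the highest member. It read 0.69, 0.61, 0.31 and 0.14 on days 1 to 4. It was above 0 on every array, and days 1 and 2 were the higher pair. Its mean was 0.43 ± 0.26 (SD, 4 arrays), or 1.35-fold higher in induced cells (limma adjusted p = 0.278). The 95% interval of that mean, likewise not adjusted for the number of features tested, was 0.12 to 0.75. Both probes had means above 0: probe 27178_1 read 1.01, 0.63, 0.50 and 0.44, and probe 16613_1 read 0.37, 0.58, 0.11 and -0.16. UBE2N, its partner, was not analysed here. Probes for UBE2V1 can cross-hybridise with the closely related UBE2V2. Without UBE2V1, which is not an active enzyme, the median of the class was 0.066.

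UBE2H, the enzyme that works with the GID/CTLH ligase complex, read 0.46, 0.48, 0.09 and -0.032. The values of days 1 and 2 stood above those of days 3 and 4, and the mean was 0.25 ± 0.26 (limma adjusted p = 0.491). All 5 of its probes with values had means above 0, from 0.0065 to 0.77. The highest was probe 30584_1, with 0.85, 1.23, 0.54 and 0.46 on days 1 to 4. UBE2Z, which is charged by the E1 enzyme UBA6, read 0.29, 0.29, -0.12 and -0.083 on its single probe (mean 0.10 ± 0.23). UBA6 itself read -0.25, -0.32, -0.25 and -0.25, below 0 on every array, with a mean of -0.27 ± 0.037 (limma adjusted p = 0.378).

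UBE2J1, anchored in the membrane of the endoplasmic reticulum, acts in the disposal of misfolded secretory proteins. It read 0.27, 0.18, 0.03 and -0.20, with a mean of 0.07 ± 0.21 (limma adjusted p = 0.844), which was -0.00083 without the day 1 array. Of its 4 probes 2 had means above 0 and 2 below, from -0.065 to 0.29. SYVN1, a ligase of the same disposal pathway, read 0.58, 0.26, 0.01 and 0.19 (mean 0.26 ± 0.24, limma adjusted p = 0.463).

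UBE2A and UBE2B are near-identical proteins that act in DNA damage tolerance and in the ubiquitination of histones, and probes of either may detect both. UBE2A read -0.019, -0.23, -0.15 and 0.09 (mean -0.08 ± 0.14). Both of its probes with values on all arrays had means below 0, and the day 4 average includes a further probe, 24748_1, at 0.59, that had a value on that day only. UBE2B read 0.08, -0.27, -0.084 and 0.08 (mean -0.05 ± 0.17). Of its 5 probes with at least 3 values 2 had means above 0 and 3 below, from -0.25 to 0.42. Probe 34235_1 read 1.35 on day 4, and without it the day 4 average of UBE2B was -0.18. Without the day 2 array the mean of UBE2B was 0.025.

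**Figure D2:**
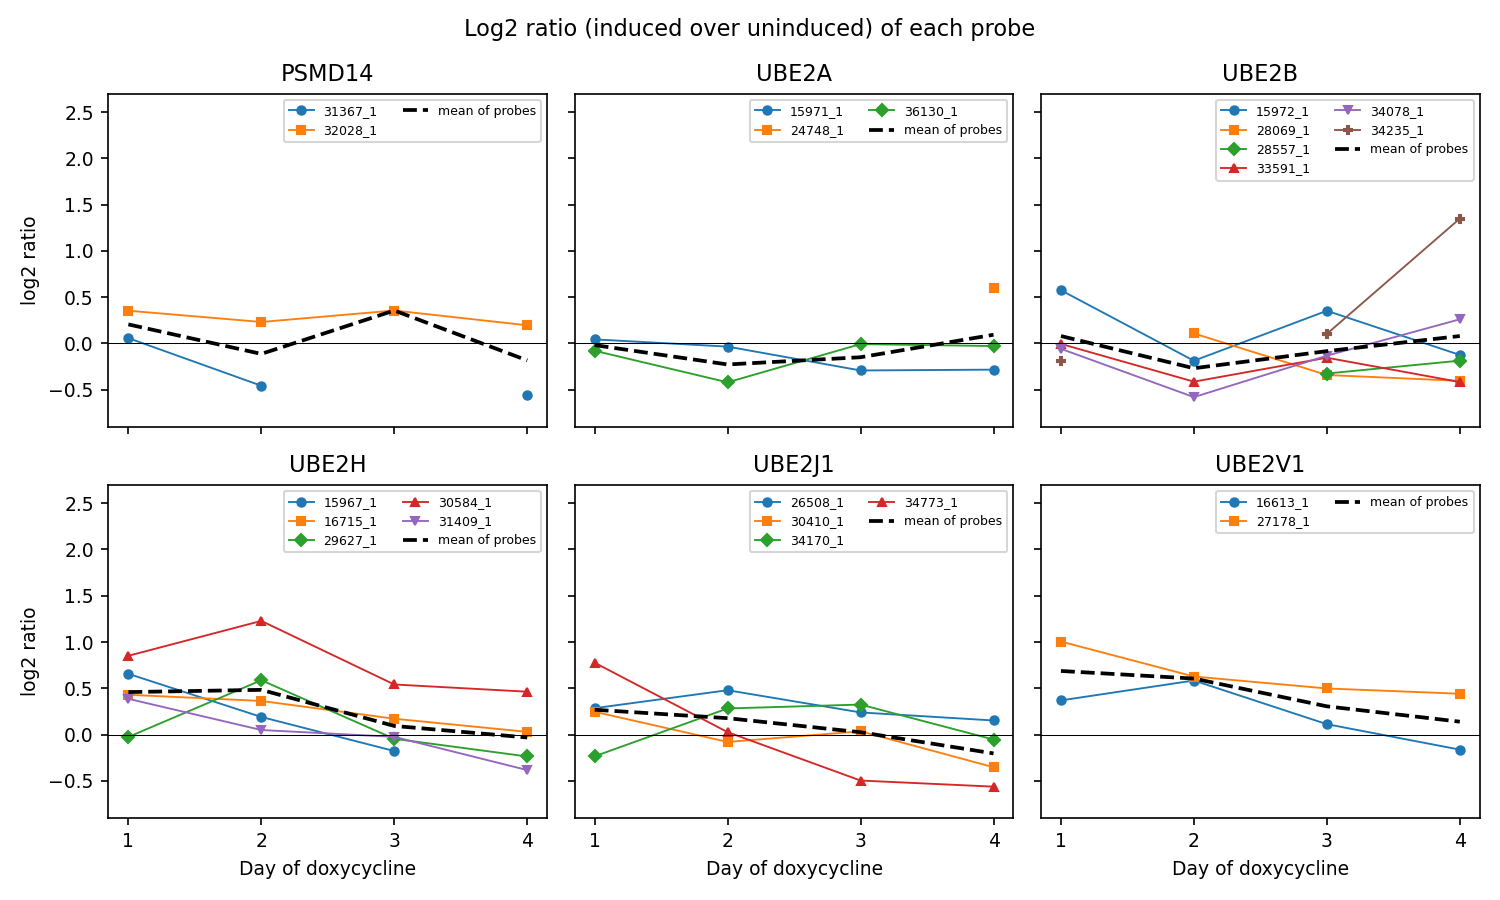
Log2 ratio of every probe with a value (coloured lines) and the mean over probes (black dashed line) by day of doxycycline for the 6 members with more than 1 probe. The UBE2H and UBE2V1 probes have means above 0, the PSMD14 probes lie apart, and 1 UBE2B probe stands at 1.35 on day 4.

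Set side by side per day, the classes had these medians. On day 1 the median was -0.006 for the core, 0.13 for the cap and 0.28 for the conjugating enzymes, with -0.062 over all features. On day 2 the medians were -0.19, -0.36 and 0.23, with -0.081 over all features. All 7 proteasome genes lay below 0 on that day, as did 4015 of 6890 features, while 4 of 6 conjugating enzymes lay above 0. The day 3 medians were -0.12, 0.18 and -0.029, with 0.017 over all features. On day 4 they were -0.38, -0.10 and 0.023, with 0.012 over all features.

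The conjugating enzymes thus had a higher median than the core on each day, by 0.29, 0.42, 0.09 and 0.40 on days 1 to 4. The cap lay above the core on days 1, 3 and 4 and below it on day 2 by -0.17. With 5, 2 and 6 genes and 1 array per day, these medians are descriptions without a test. The day 3 median of the conjugating enzymes was 0.14 when each gene was read from its probe with the fewest missing values. Their day 4 median was then below 0, at -0.104, and it was -0.0887 with probes that had values on all 4 arrays. The day 4 median of the core was -0.381 in both settings. The plasma cell markers also had higher medians on the early days, at 0.60, 0.70, 0.25 and 0.13 on days 1 to 4, and their part in the values of the conjugating enzymes was not tested.

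**Figure D3:**
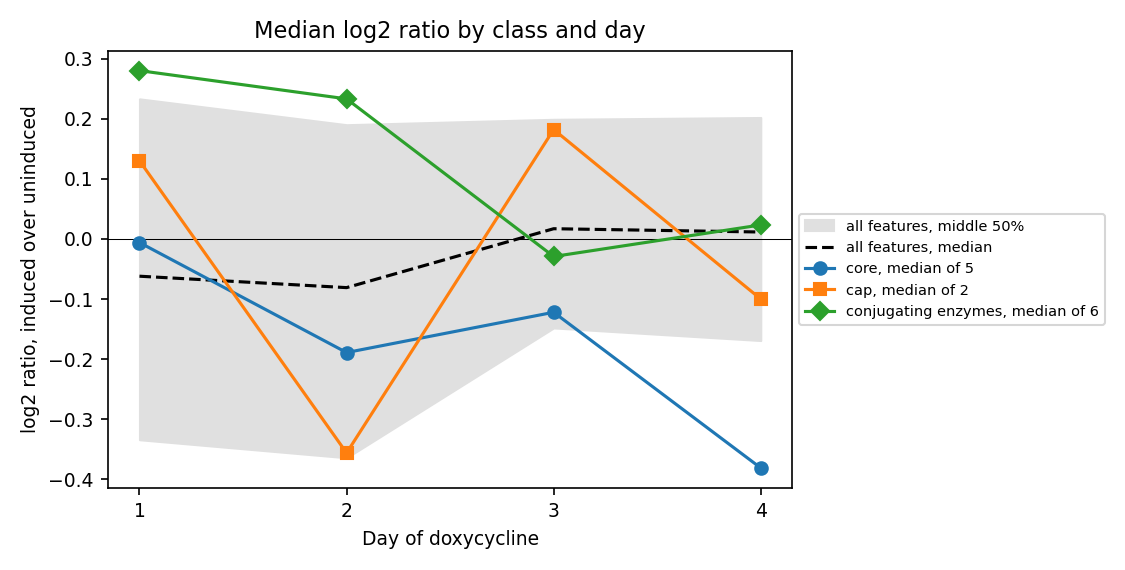
Median log2 ratio of induced over uninduced cells (vertical axis) by day of doxycycline for the core, the cap and the conjugating enzymes, with the median (dashed) and the middle 50% (grey) of all features. The conjugating enzymes lie at 0.28 and 0.23 on days 1 and 2, and the core lies at -0.38 on day 4.

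The second comparison asked whether the ratio changed with the day of induction. No member passed on the slope of its log2 ratio over the days (limma, 0 of 13), and neither did any feature (0% of 6427). Before adjustment 2 members, PSMB1 and PSMB4, had a p under 0.05, against 15% of all features. The slope of PSMB1 was 0.28 ± 0.10 log2 per day (SE, 4 arrays; limma adjusted p = 0.318) and that of PSMB4 -0.23 ± 0.083 (limma adjusted p = 0.319), so that these structural subunits of the same ring had opposite signs. Of 13 slopes 9 were below 0, against 45.8% over all features. In the conjugating enzymes the slopes below 0 were those of UBE2V1 (-0.19), UBE2H (-0.19), UBE2J1 (-0.16) and UBE2Z (-0.15). Those of UBE2B (0.018) and UBE2A (0.04) were above 0, but include the day 4 values of probes 34235_1 (1.35) and 24748_1 (0.59). Without probe 34235_1 UBE2B read 0.17, -0.27, -0.12 and -0.18 on days 1 to 4. Slopes without these probes were not fitted. The slopes of PSMB6, PSMA7 and PSMB7 were -0.18, -0.11 and -0.032. In the cap, PSMD14 had a slope of -0.07 and PSMD6 of 0.04.

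The days also fell into an earlier and a later pair, a grouping chosen after the values were seen. For UBE2H, UBE2J1, UBE2V1 and UBE2Z, both values of days 1 and 2 lay above both values of days 3 and 4. Over all features with 4 values this held for 22.4% (1441 of 6427), and the reverse held for 32.1%. In UBE2J1 the average over probes showed this order, but probes 30410_1 and 34170_1 did not. Among the core subunits the order held for PSMB4 and PSMB7, and the reverse held for PSMB1. Neither cap subunit showed either. Among the other ubiquitin-proteasome genes with 4 values it held for 7 of 23 (30.4%) and the reverse for 2. Of the genes left out by the rule, PSMB9, PSMB10 and UBE2S showed it and UBE2C did not. For PSMB10 the margin was narrow, with 0.064 on day 1 against 0.042 on day 4. Its probe 15862_1 showed the order, and probes 28421_1 and 33020_1 did not. For UBE2V1 the average was 0.65 on days 1 and 2 and 0.22 on days 3 and 4, and for UBE2H it was 0.47 and 0.03. Each pair consists of 2 single arrays, and time in culture and time of induction cannot be told apart. The arrays of days 1 and 2 were also more widely spread. They had values for 11386 and 10321 probes, against 13544 and 13872 on days 3 and 4. Such differences between arrays cannot be told apart from the day either.

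The genes that the rule left out were read on the same arrays. PSMB9, which takes the place of PSMB6 in the immunoproteasome, read 0.13, -0.37, -0.62 and -0.56 (mean -0.35 ± 0.34, limma adjusted p = 0.413). PSMB10, which takes the place of PSMB7, read 0.06, 0.19, 0.014 and 0.04 (mean 0.08 ± 0.076), with 2 of 3 probe means above 0. Its probes disagreed: on days 1 and 2 probe 15862_1 read 0.62 and 0.04, and probe 28421_1 read 0.15 and -0.09. Probe 33020_1 read -0.57 and 0.61 on these days. The small SD of PSMB10 is that of an average in which these probes offset each other. UBE2C and UBE2S, which serve the anaphase-promoting complex in mitosis, had means of -0.30 ± 0.15 and -0.15 ± 0.59. UBE2S read 0.65, -0.18, -0.33 and -0.76, so that its day 1 and day 4 arrays lay farther apart than those of any member. None of these 4 genes passed for the mean or the slope.

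**Figure D4:**
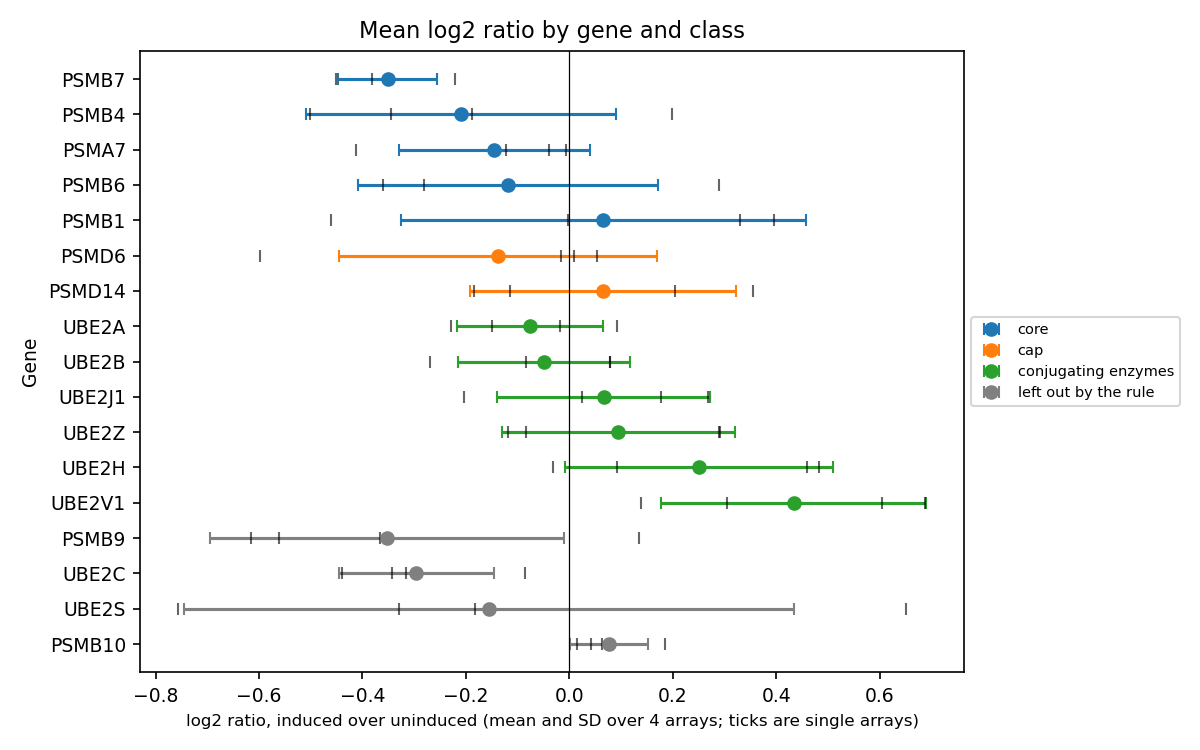
Mean log2 ratio over the 4 arrays (points) with its SD (bars) and the single arrays (black ticks) for the 13 members by class and for the 4 measured genes left out by the rule. Among the members the bars of PSMB7, on the lower side, and UBE2V1, on the higher side, do not reach 0, and neither gene passed the test over all features.

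Around the members, 24 of 63 other genes of the ubiquitin-proteasome system could be tested. On the mean 16 lay above 0 and 8 below, with a median of 0.10. Over all features 44% of the means were above 0, with a median of -0.032. Of the 24 genes 1 was lower and 0 higher at a limma adjusted p under 0.05, against 0.337% (26 of 7713) called over all features in either direction. The lower one was TNFAIP3, the NF-κB-induced deubiquitinase A20, at -1.47 ± 0.28 (limma adjusted p = 0.0178). On the slope 0 of 23 passed with limma. Among subunits of the ligase that recognises phosphorylated IκBα, FBXW11 (the paralog of BTRC) read -1.18, -0.98, -0.21 and -0.17 (mean -0.64 ± 0.52, limma adjusted p = 0.286). BTRC itself read 0.17, 0.028, 0.49 and 0.04 (mean 0.18 ± 0.22), the adaptor SKP1 had a mean of 0.03 ± 0.18 and the RING subunit RBX1 of 0.10 ± 0.50.

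Of 5 proteasome regulators 3 had means above 0 and 2 below. PSME3, the nuclear activator PA28 gamma, read 0.27, 0.26, 0.42 and 0.17 (mean 0.28 ± 0.10, limma adjusted p = 0.377). PSME1, an activator subunit that interferon induces, had a mean of 0.02 ± 0.12, PSMF1, an inhibitor of the core, of 0.24 ± 0.17, PSME4, a further activator, of -0.08 ± 0.30, and SEM1, a small cap subunit, of -0.12 ± 0.15 (3 arrays). NFE2L2, a transcription factor that activates proteasome genes under oxidative stress, read 0.85, 0.013, -0.20 and -0.20 (mean 0.12 ± 0.50). TRAF6, the ligase that works with UBE2N and UBE2V1, had the highest mean of these 24 genes at 0.33 ± 0.40 (limma adjusted p = 0.469).

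The promoters of UBE2V1, the highest member, and of PSMB4, the core subunit with a promoter entry, are shown for the reader to set beside these values. Promoter entries in RefSeq (GRCh38.p14) matched 7 of 13 members, with 8 start sites because UBE2V1 has a pair of them. The 250 bases before each start were searched on both strands for the κB consensus, for the core of ETS factor sites (CGGAAG), for an antioxidant response-like motif (TGACNNNGC) and for the CCAAT box (CCAAT). The motifs were chosen with the promoters in view. Capitals mark every match, and sequences run 5′ to 3′ on the strand of the gene.

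UBE2V1 upstream start, chr20:50115958-50116207, minus strand: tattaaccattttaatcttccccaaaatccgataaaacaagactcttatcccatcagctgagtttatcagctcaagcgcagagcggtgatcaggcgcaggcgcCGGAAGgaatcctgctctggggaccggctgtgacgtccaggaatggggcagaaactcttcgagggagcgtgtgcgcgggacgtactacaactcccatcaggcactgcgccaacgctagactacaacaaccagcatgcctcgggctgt
UBE2V1 downstream start, chr20:50113151-50113400, minus strand: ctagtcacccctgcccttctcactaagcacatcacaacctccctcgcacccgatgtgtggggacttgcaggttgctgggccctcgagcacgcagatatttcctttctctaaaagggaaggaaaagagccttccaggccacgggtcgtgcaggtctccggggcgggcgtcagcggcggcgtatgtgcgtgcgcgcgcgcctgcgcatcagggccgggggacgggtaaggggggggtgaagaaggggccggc
PSMB4, chr1:151399323-151399572, plus strand: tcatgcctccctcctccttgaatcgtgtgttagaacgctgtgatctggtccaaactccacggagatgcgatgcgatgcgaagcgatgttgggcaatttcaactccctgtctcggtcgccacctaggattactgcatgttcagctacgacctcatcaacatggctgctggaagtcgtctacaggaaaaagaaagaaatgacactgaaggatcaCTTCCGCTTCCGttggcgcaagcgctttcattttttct

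The PSMB4 window holds the ETS core in tandem on the minus strand, ending 27 bases before the start. In UBE2V1 only the window of the upstream start holds it. Of 8 member windows 5 held the ETS core, in PSMB4, PSMD6, PSMD14, UBE2V1 and UBE2Z, against 16.5% of 35116 windows of the same length. Since the motifs were chosen with these promoters in view, this share is a description without a test. The windows compared were not matched for base composition. The κB consensus was found in 0 of 8 windows and in 9.96% of all windows, which says only that these letters are not in these stretches. The CCAAT box was found in 3 of 8 (PSMD6, PSMD14 and UBE2Z) against 32% of all windows, and the antioxidant response-like motif in 1 (UBE2J1) against 10.9%.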

How the data were processed

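Per the labels, 4 two-colour arrays compared induced (Cy5) with uninduced (Cy3) EJM cells. The deposited values were taken as log2 ratios per probe. How the authors corrected, normalized and filtered the spots, the log base and the direction were not given in the sources used here. Spot intensities were not analysed here. The table listed 15246 probes, 10169 of them with 1 gene symbol, 4 with several and 5073 unnamed here; values were present for 10321 to 13872 probes per array. Symbols were updated through the Entrez identifier in RefSeq (GRCh38.p14; 10128 probes matched). Probes of a gene were averaged per array, a feature's mean needed at least 3 arrays and its slope on day all 4 (7713 and 6427 features). Tests were two-sided moderated fits in R 4.3.3 with limma 3.58.1 (Benjamini-Hochberg over all features, threshold 0.05), checked on simulated data.

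If the uninduced RNA was 1 preparation, a test of the ratio misses the spread among control samples. A dye bias or an effect of doxycycline itself remains in the mean and cannot be told apart from induction. The number of arrays limits the precision. The members and lists were chosen with earlier results of these data known. The genes described were the highest and lowest means and slopes of each class and genes with a known role in the pathway. To these came the 3 highest and 3 lowest means of the other ubiquitin-proteasome genes. Members that passed were to be described too, but none did. Alternatives were other array scaling, centring and weights, other probe and feature filters, symbols as annotated, no moderation, subsets of days and leaving out each array. For the median of the conjugating enzymes, leaving out the inactive variant UBE2V1 was a further alternative.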

Additional observations from a re-analysis of the deposited data

Results flagged for a closer look

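Sets of 4 values (1 per array) were examined for an array far from the others, judged by the gap from the lowest or highest value to its neighbour as a share of the whole range (Dixon's test at the 95% level). Of 45 sets 3 met this, and chance gives about 1 in 20. The sets were those of the members, of other genes of the system, of the genes left out by the rule and of class medians. Since the medians were taken over the same members, the sets were not independent. PSMD6 had its lowest value on day 2, at -0.60, while the other days lay between -0.016 and 0.05. UBA6, the E1 enzyme of UBE2Z, had its lowest value on day 2 at -0.32, beside values within a narrow span on the other days. UBQLN2, a shuttle factor that carries ubiquitinated proteins to the proteasome, was lowest on day 4 at 0.09, against 0.24 to 0.25 on days 1 to 3.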

How the results depend on the processing

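No member was called for the mean under any of 13 alternatives (limma adjusted p from 0.051, with days 3 and 4 alone, to 0.627 for PSMB7 and from 0.192 to 0.612 for UBE2V1) or for the slope under any of 10. Over all features, 26 were called for the mean. The count was 144 with array weights, 3 with arrays scaled to the same spread, 1 with days 1 and 2 alone, 630 with days 3 and 4 alone, 42 for features with values on all 4 arrays, 0 with the linear model without moderation, and 3 to 5 when an array was left out. The sign of the mean was kept under every alternative run by PSMA7, PSMB7, UBE2A, UBE2H and UBE2V1. It turned under at least 1 alternative for PSMB1, PSMB4, PSMB6, PSMD6, PSMD14, UBE2B, UBE2J1 and UBE2Z. The mean of UBE2V1 ran from 0.22 to 0.65 and that of PSMB7 from -0.42 to -0.29. The median of the conjugating enzymes over the days was 0.26 with days 1 and 2 alone, and on day 3 it was 0.14 when each gene was read from its least incomplete probe. The other 49 alternative medians over the days and 95 per day moved by less than the SD of the daily medians. Some of them still crossed 0. The day 4 median of the conjugating enzymes was 0.023 in the main analysis and -0.104 with the least incomplete probe. Leaving out UBE2B probe 34235_1, chosen after seeing the data, gave a mean of -0.10 for that gene. The causes of these shifts were not tested. No paired analysis was possible because the arrays form a single group of ratios.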

Other observations

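Symbols picked by the rule that did not reach 3 arrays had values on 2 arrays or none. UBE2L6, the conjugating enzyme of the ubiquitin-like modifier of the interferon response, read -0.14 on day 1 and -0.064 on day 3. PSMA3-AS1, an antisense RNA whose symbol shares the prefix but which encodes no proteasome subunit, read -0.18 on day 3 and -0.22 on day 4. PSMD3 had a probe without a value on any array. UBA7, the E1 enzyme that works with UBE2L6, read -0.72, -0.25, 0.13 and 0.09 on days 1 to 4 (mean -0.19 ± 0.39, limma adjusted p = 0.657). UBA1, the main E1 enzyme of ubiquitin, had values only on days 3 and 4, at 0.38 and 0.18. USP1 and OTUB1, both deubiquitinases, had their highest values on day 1, at 0.93 and 1.07, and read -0.45 and -0.18 on day 4; neither passed for the mean or the slope.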
